A study of Mus musculus with 130 samples.

Results

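The comparison set cells of the G1 gate (label DR) against cells of the G0 gate (label BR), both sorted from the same 3 embryo preparations, WT1 and WT2 at E10.5 and WT3 at E11.5. Samples were chosen by the titles and phase labels alone, which took 44 of the 130 in the series. Titles of 1 preparation and gate that differ only in their last parts were lanes of 1 library, so these 44 made 6 of 25 libraries, with n = 3 preparations a side, paired by preparation. All embryos were of strain FVB/NJ and carried FUCCI, a fluorescent reporter of the cell cycle, with no other allele or agent named in the labels. The FUCCI transgene's promoter and the sorting limits are not in the labels. Nor do they say how many embryos made up 1 preparation, so p-values measure the spread between preparations of unknown make-up. The tissue label is the whole embryo, and the labels do not limit either gate to certain cell types.

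FUCCI joins a red protein to a piece of CDT1, which is degraded once S phase begins, and a green protein to a piece of geminin, which is degraded at the end of mitosis. Red cells are therefore before S phase, and cells that stay there gather more red protein. In G1 the D-type cyclins with CDK4 and CDK6, and then cyclin E with CDK2, inactivate the pocket proteins RB1, RBL1 and RBL2. That frees E2F transcription factors, which raise the genes of DNA replication. In resting (G0) cells RBL2 or RBL1 and the MuvB core, parts of the complex called DREAM, hold these genes and the later mitotic genes down. At mid-gestation the cells that have left the cycle include newborn neurons of the spinal cord, brain stem and ganglia.

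The 6 libraries held 21.2 to 35.5 M counts each (median 25.2 M). Lanes of a library differed little more than by counting (index of dispersion 1.12 to 1.21, where 1 is counting noise), while libraries of 1 gate from different preparations differed far more (44.6 in G1 and 29.1 in G0). Levels below are given as CPM, that is counts scaled to the library's adjusted total, and changes are log2 ratios of G1 over G0 with their standard error. Both gates were low in mitotic genes: the 40 genes of the G2 and mitosis list summed to 936 to 1230 CPM in G1 and 318 to 519 CPM in G0, against 10400 to 11200 CPM in the S-G2-M gate of the same preparations (plain totals in these 3 ranges). Globin genes took 0.335%, 0.047% and 0.087% of counts in the G1 libraries of WT1, WT2 and WT3, and 0.009%, 0.019% and 0.027% in their G0 libraries.

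Of 22549 genes tested, 8134 (36.1%) passed an adjusted p of 0.05 by edgeR's quasi-likelihood test, 3919 higher in G1 (17.4%) and 4215 lower (18.7%). The median over all genes was 0.00. The calls lower in G1 reached further. At a change of at least 4-fold there were 262 genes higher and 902 lower, and at 8-fold or more 29 higher and 331 lower. Of the 8134 calls, 8109 (99.7%) had the same direction in each of the 3 preparations, against 62.3% of all genes tested. The 3 libraries of 1 gate did not overlap the 3 of the other for 10137 genes, which is 45% of those tested. In bulk libraries a smaller number of cells of 1 type and less RNA per cell cannot be told apart, and this holds for every result that follows. The gene lists were chosen with earlier results of these data known, so their counts are descriptions and not independent support.

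The 15 largest changes each way gave a first view of the gates. Several of the 15 lowest in G1 are known from differentiated neurons. Sncg, gamma-synuclein (ENSMUSG00000023064.4, GRCm38 chromosome 14 from 34370274 to 34374789, minus strand), had 1.64, 2.5 and 0.677 CPM in the G1 libraries of WT1, WT2 and WT3, against 88.4, 91.8 and 62.1 CPM in G0. The change was -5.71 ± 0.23 (SE, adjusted p = 3.84e-07), and each G1 library was far under each G0 library. Scn9a, a voltage-gated sodium channel of sensory and sympathetic neurons, changed by -4.88 ± 0.33, and Nefl, the light neurofilament, by -4.72 ± 0.13. Ecel1, Sez6l2, Arhgap36, Fstl5, Slc17a6, Robo3, Nefm, Slc6a5, Cnmd, Grm2 and Adcyap1 were also in that set, at -4.38 to -3.92.

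The 15 highest in G1 under the same limits held transcription factors of embryonic connective tissue and of the dorsal neural tube. Nr1h5, the bile acid receptor relative FXR-beta (ENSMUSG00000048938.12, GRCm38 chromosome 3 from 102939658 to 102964133, minus strand), had 46, 43.7 and 54.3 CPM in G1 and 5.84, 6.67 and 7.93 CPM in G0, a change of 2.82 ± 0.15 (adjusted p = 7.37e-07). Both groups were tight and far apart. Alx4 (2.72 ± 0.16), Twist1 (2.51 ± 0.21) and Prrx1 (2.5 ± 0.13) are transcription factors of limb and facial mesenchyme. Pax7 (2.70 ± 0.20) and Pax3 (2.39 ± 0.20) are paired-box factors of the dorsal neural tube, neural crest and muscle precursors. Hmga2, a chromatin protein of fetal growth, had 199, 270 and 252 CPM in G1 and 30.8, 43.2 and 69.7 CPM in G0 (2.39 ± 0.16). Fndc3c1 (2.70), Mki67 (2.5 ± 0.45, adjusted p = 0.0179, and 0.158 without the filter on low counts), Fap (2.46), Ung (2.44), Meox1 (2.36), Lpar1 (2.36), Ccnb2 (2.36) and Mertk (2.35) made up the rest.

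**Figure D1:**
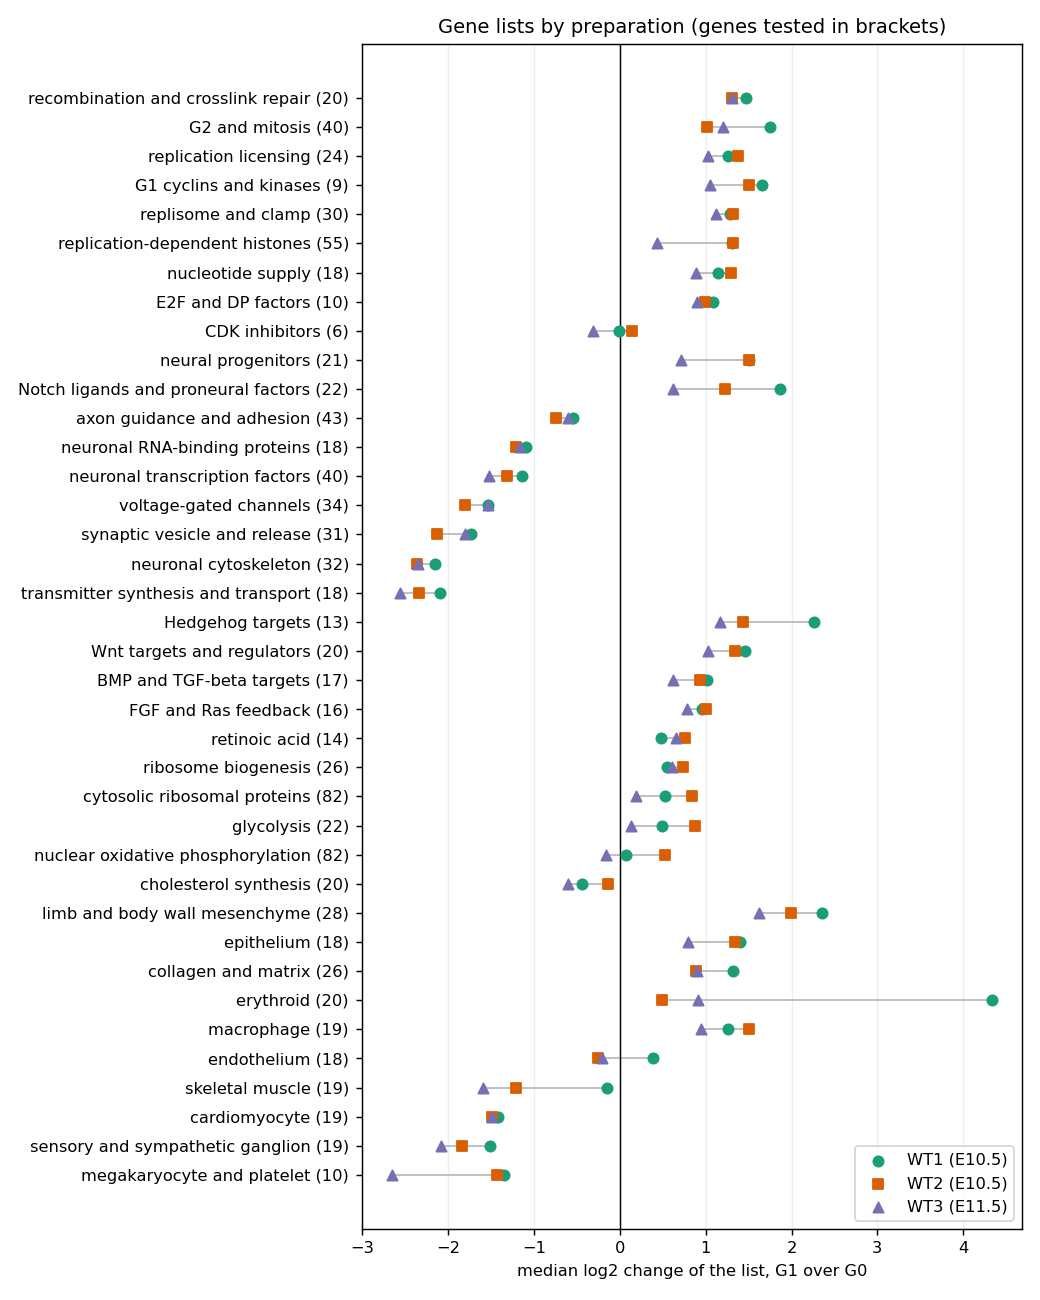
Median log2 change of G1 over G0 for 38 gene lists (genes tested in brackets), 1 point for each of the preparations WT1, WT2 and WT3. Replication, Hedgehog, Wnt and mesenchyme lists stood above 0 and neuronal lists below 0 in each preparation, while the erythroid list stood at 4.34 in WT1 against 0.49 in WT2 and 0.91 in WT3.

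The E2F family was higher in G1 almost throughout. Of 10 E2F and DP genes 9 rose and none fell (median 0.95), against 17.4% and 18.7% of all genes tested. Activators and atypical repressors, which bind the same sites with opposite effect, rose together. E2f1, an activator (ENSMUSG00000027490.17, GRCm38 chromosome 2 from 154559407 to 154569892, minus strand), had 65.2, 56.6 and 61.2 CPM in the G1 libraries of WT1, WT2 and WT3, against 19.7, 19.4 and 25.2 CPM in G0 (1.52 ± 0.13, adjusted p = 1.76e-05). E2f2, also an activator (ENSMUSG00000018983.9, GRCm38 chromosome 4 from 136172394 to 136196057, plus strand), had 19.9, 18.8 and 20.8 CPM in G1 and 2.72, 5.43 and 6.88 CPM in G0 (2.07 ± 0.25). E2f8, an atypical repressor (ENSMUSG00000046179.17, GRCm38 chromosome 7 from 48866429 to 48881596, minus strand), had 12.1, 12.4 and 17.2 CPM in G1 and 1.28, 4.34 and 3.17 CPM in G0, the largest change of the family (2.35 ± 0.31). No G1 library of E2f1, E2f2 or E2f8 overlapped a G0 library, and G0 of WT1 was the lowest or nearly the lowest library. E2f7, the other atypical member, changed by 1.37 ± 0.14 and E2f3 by 1.05 ± 0.11. The repressors of resting cells moved less, E2f4 by 0.57 ± 0.12 and E2f5 by 0.54 ± 0.14 (adjusted p = 0.0723 without WT1), and the dimer partners Tfdp1 and Tfdp2 by 0.79 ± 0.11 and 0.84 ± 0.13. E2f6, which acts without pocket proteins, was level at 52.2, 70.8 and 57.1 CPM in G1 and 55.5, 55.4 and 62.7 CPM in G0 (0.04 ± 0.13, adjusted p = 0.816).

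Among the pocket proteins, Rbl1 (p107), itself an E2F target in proliferating cells, rose by 1.08 ± 0.13, while Rbl2 (p130), the pocket protein of resting cells, fell by 0.51 on the log2 scale (SE 0.18, adjusted p = 0.0481). Rbl2 had 16.4, 11.2 and 13.1 CPM in G1 and 20, 21.1 and 16.5 CPM in G0. Its groups came close without overlapping, and 21% of its exon length lies under exons of the other strand, whose reads cannot be told apart without stranded counting. The Rbl2 call was lost without the preparation block (adjusted p = 0.0795), without WT1 (0.0782) and without WT2, where the change was -0.31 (0.227). It was also narrowly lost with RLE scaling (0.0511), without 2 ribosomal RNA genes (0.0514) and in a fit of all 15 libraries (0.0615). Rb1 stood at 69.5, 50.7 and 54.1 CPM in G1 and 69.8, 69.1 and 66.9 CPM in G0 (-0.25 ± 0.12, adjusted p = 0.128). The MuvB core genes Lin9, Lin37, Lin52, Lin54 and Rbbp4 did not pass the test, at -0.11 to 0.27. The partners that turn MuvB into an activator of mitotic genes did: Mybl2 rose by 1.98 ± 0.22 and Foxm1 by 1.68 ± 0.25.

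All 9 G1 cyclin and kinase genes rose (median 1.23). Ccnd1, cyclin D1, had 242, 261 and 170 CPM in G1 and 43.5, 49.2 and 67.4 CPM in G0 (2.08 ± 0.21). Ccne1, cyclin E1, had 33.5, 53.3 and 47.9 CPM in G1 and 8.62, 10.2 and 17.5 CPM in G0 (1.93 ± 0.18), and its kinase gene Cdk2 changed by 1.90 ± 0.17. For Ccnd1 the groups came closest in WT3, the E11.5 preparation. Ccnd2 (1.62), Ccne2 (1.23), Ccnd3 (1.17), Cdk6 (1.14), Cdc25a (1.09) and Cdk4 (0.53) followed.

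The CDK inhibitors did not move as a family. Of 6 tested, 1 rose and 1 fell (16.7% each), near the 17.4% and 18.7% of all genes tested. Cdkn2a was too low to test. Cdkn2d, the INK4 inhibitor p19 (ENSMUSG00000096472.2, GRCm38 chromosome 9 from 21288410 to 21291407, minus strand), had 10.3, 12.3 and 8.94 CPM in G1 and 32, 30.3 and 33.2 CPM in G0, a fall of 1.61 on the log2 scale (SE 0.17, adjusted p = 4.92e-05). Cdkn2c, the INK4 inhibitor p18, had 3.84, 1.4 and 1.57 CPM in G1 and 0.257, 0.667 and 0.529 CPM in G0 (2.13 ± 0.51). Without WT1 the Cdkn2c change was 1.31 (adjusted p = 0.0694), so this call rested on WT1. The best known inhibitors of the CIP/KIP class did not pass the test. Cdkn1b (p27) stood at 65.8, 70.2 and 59.8 CPM in G1 and 75.9, 70.8 and 84.5 CPM in G0 (-0.24 ± 0.12, adjusted p = 0.155). Without WT2 it changed by -0.35 (adjusted p = 0.0402). Cdkn1c (p57), an imprinted gene, stood at 293, 393 and 275 CPM in G1 and 312, 303 and 397 CPM in G0 (-0.08 ± 0.15), and Cdkn1a (p21) had 5.13, 5.95 and 5.7 CPM in G1 and 4.88, 8.29 and 6.15 CPM in G0 (-0.18 ± 0.22). For Cdkn1c and Cdkn1a the groups overlapped.

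**Figure D2:**
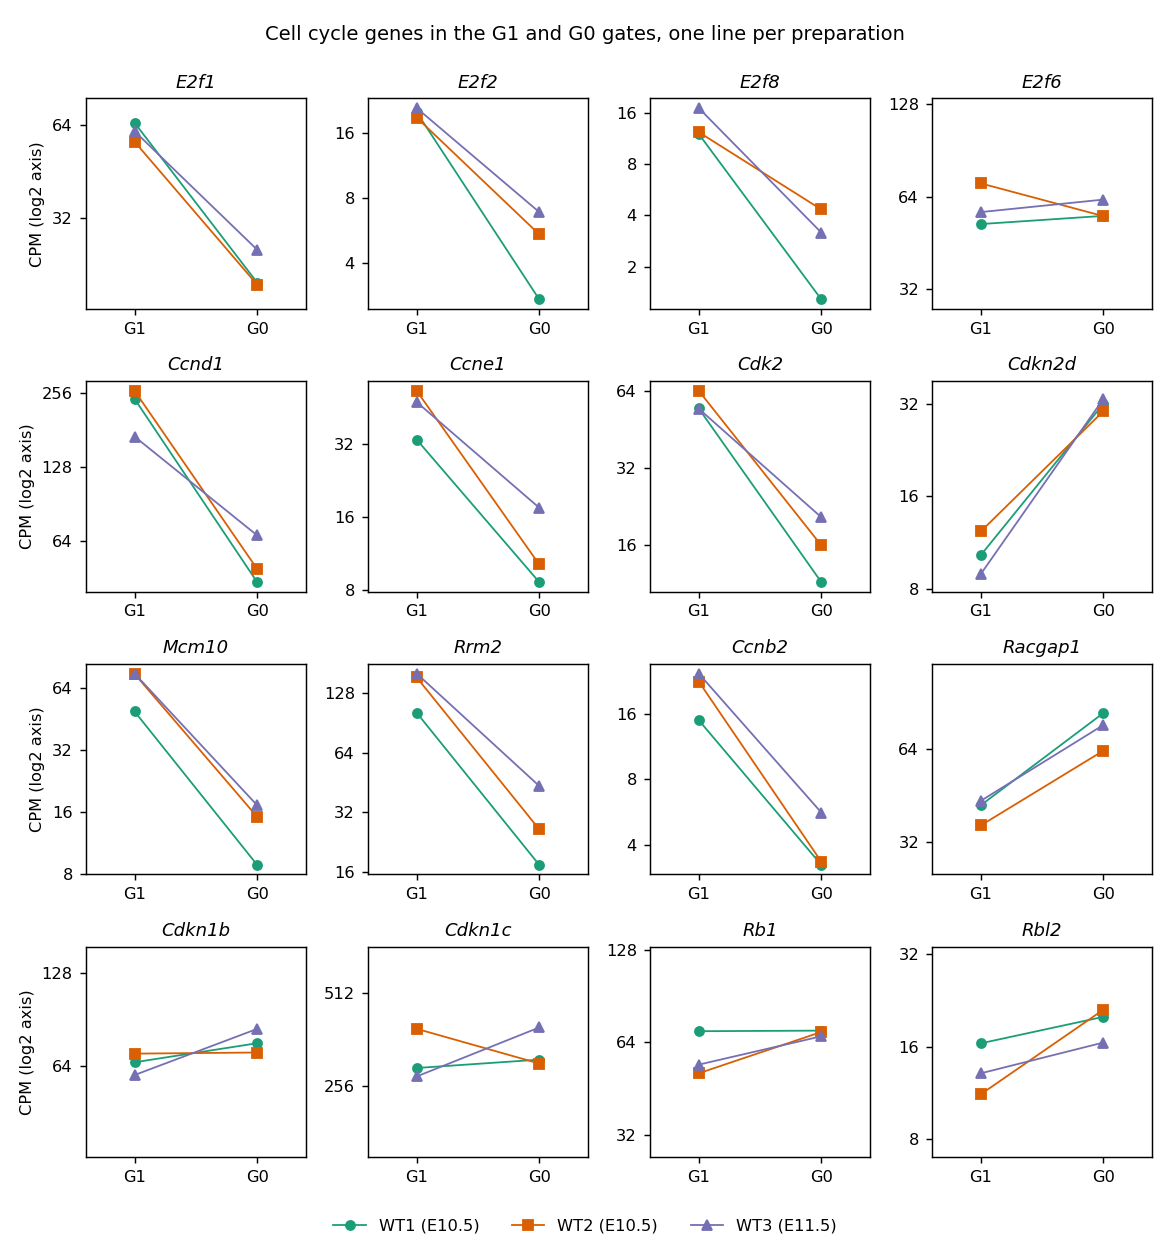
CPM on a log2 axis of 16 cell cycle genes in the G1 and G0 gates, with 1 line for each preparation (WT1 and WT2 at E10.5, WT3 at E11.5). E2f1, E2f2, E2f8, the cyclin genes, Cdk2, Mcm10 and Rrm2 were higher in each G1 library than in each G0 library, Cdkn2d and Racgap1 were lower, and E2f6, Cdkn1c and Rb1 overlapped.

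Genes of DNA replication were higher in G1 nearly without exception. In the licensing list, whose products load the MCM helicase on origins, 22 of 24 rose and none fell (median 1.26). Mcm10 had 49.4, 75.2 and 75.5 CPM in G1 and 8.88, 15.2 and 17.3 CPM in G0 (2.30 ± 0.13, adjusted p = 1.29e-06). Orc3 (0.15 ± 0.10) and Orc4 (-0.07 ± 0.10), which belong to the origin recognition complex, were those that did not pass. In the replisome list 29 of 30 rose (median 1.22), led by Clspn (2.05 ± 0.13), a checkpoint mediator at forks, and Prim1 (1.97 ± 0.16), the primase subunit. Of 18 nucleotide supply genes 17 rose. Rrm2, a subunit of ribonucleotide reductase, had 102, 154 and 161 CPM in G1 and 17.3, 26.2 and 43.4 CPM in G0 (2.33 ± 0.15). Of 20 genes of recombination and crosslink repair 18 rose, with the exonuclease gene Exo1 at 2.16 ± 0.19. WT1 had the lowest summed level of these 4 lists in both gates. The summed licensing list stood at 2180, 2900 and 2800 CPM in G1 and 891, 1090 and 1310 CPM in G0.

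Replication-dependent histone genes split by preparation. Of 55 tested 41 rose and 3 fell, and the list median was 1.31 in WT1, 1.32 in WT2 and 0.43 in WT3. Hist1h3g rose by 1.80 ± 0.23. The 3 that fell, Hist3h2a (-2.28 ± 0.21), Hist3h2ba (-1.61 ± 0.15) and Hist2h3c2 (-1.34 ± 0.44), lie outside the main cluster Hist1. Hist2h3c2 lost its call without WT2 (adjusted p = 0.0848) and without WT3 (0.141). Histone genes have near-identical copies, so the authors' counting may lose reads that match several copies or divide them. Hist2h2aa1, Hist2h2aa2, Hist2h2bb, Hist2h3b and Hist2h3c1 had no count in any of the 6 libraries. Among the replacement variants, Cenpa (1.65 ± 0.17), the centromeric histone, H2afv (1.18), H2afz (0.89), H2afx (0.86), H1fx (0.67), H2afy (0.60) and H2afy2 (0.39) rose. H3f3a (0.02 ± 0.13) and H3f3b (-0.31 ± 0.13), the variants that neurons also use, did not pass. H2afy2 was not called without WT1 (adjusted p = 0.0619), nor H1fx without WT2 (0.0947) or WT3 (0.122), and H3f3b passed without WT2 at -0.50 (0.00356).

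Mitotic genes, low in both gates, were also higher in G1: 36 of 40 rose and 1 fell (median 1.33). Ccnb2, cyclin B2 (ENSMUSG00000032218.7, GRCm38 chromosome 9 from 70407692 to 70421547, minus strand), had 15, 22.6 and 24.6 CPM in G1 and 3.23, 3.34 and 5.63 CPM in G0 (2.36 ± 0.20), and Birc5, survivin, had 12.5, 22.4 and 18.9 CPM in G1 and 0.991, 3.86 and 2.93 CPM in G0 (2.90 ± 0.25). Racgap1 went the other way, with 42, 36.1 and 43.4 CPM in G1 and 83.8, 63.2 and 76.6 CPM in G0 (-0.87 ± 0.11). Its product acts in cytokinesis. The S-G2-M gate held 10400 to 11200 CPM of this list, and the part that cells of that gate have in the G1 level was not tested.

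Promoters of licensing genes and of mitotic genes differed in how often they held either of 2 short motifs, and 4 of them are shown for that reason. Promoter windows of 300 bases (250 before the start and 50 from it on) came from RefSeq on GRCm38.p6 and matched 12796 of the 22549 genes tested. They were searched on both strands for the E2F site, spelled TTTCCCGC, TTTGGCGC, TTTCGCGC or TTTGCCGC, and for the CHR, the DREAM element of mitotic genes, spelled TTTGAA. Capitals mark the matches, and sequences run 5′ to 3′ on the strand of the gene. Mcm3 (chr1:20820263-20820562, minus strand) and Cdc6 (chr11:98907901-98908200, plus strand) load or form the replicative helicase, and Ccnb2 (chr9:70421505-70421804, minus strand) and Cdk1 (chr10:69352863-69353162, minus strand) drive mitosis.
Mcm3: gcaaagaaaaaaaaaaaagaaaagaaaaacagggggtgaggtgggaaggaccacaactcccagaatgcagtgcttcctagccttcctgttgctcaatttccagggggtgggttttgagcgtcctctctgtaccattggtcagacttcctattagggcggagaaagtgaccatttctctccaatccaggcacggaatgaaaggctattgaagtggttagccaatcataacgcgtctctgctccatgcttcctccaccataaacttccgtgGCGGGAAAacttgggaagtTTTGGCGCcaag
Cdc6: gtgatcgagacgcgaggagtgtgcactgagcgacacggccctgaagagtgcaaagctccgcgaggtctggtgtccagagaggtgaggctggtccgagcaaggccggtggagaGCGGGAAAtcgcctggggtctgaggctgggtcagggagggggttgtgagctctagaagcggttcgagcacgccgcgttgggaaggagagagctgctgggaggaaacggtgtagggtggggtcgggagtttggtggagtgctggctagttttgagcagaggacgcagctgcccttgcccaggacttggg
Ccnb2: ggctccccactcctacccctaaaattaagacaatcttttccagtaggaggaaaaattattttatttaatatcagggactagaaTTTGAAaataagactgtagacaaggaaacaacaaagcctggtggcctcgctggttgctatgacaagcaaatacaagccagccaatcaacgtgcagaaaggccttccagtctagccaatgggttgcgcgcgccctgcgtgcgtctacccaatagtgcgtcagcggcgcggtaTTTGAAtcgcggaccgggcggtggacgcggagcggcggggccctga
Cdk1: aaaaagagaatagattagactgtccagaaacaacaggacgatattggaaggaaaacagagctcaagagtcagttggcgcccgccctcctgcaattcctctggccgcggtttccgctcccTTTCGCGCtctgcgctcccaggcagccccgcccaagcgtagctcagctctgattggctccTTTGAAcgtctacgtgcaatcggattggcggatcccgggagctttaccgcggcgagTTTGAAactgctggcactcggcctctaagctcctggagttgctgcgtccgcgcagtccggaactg

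In Mcm3 both E2F matches lay after the start, at bases 270 to 277 and 289 to 296 of the window, and in Cdc6 the match lay at bases 113 to 120. GENCODE starts Cdc6 further upstream, at 98907801, so the whole Cdc6 window lies inside the gene by that annotation. Ccnb2 had CHR matches at bases 84 to 89 and 255 to 260. Cdk1, chosen after the matches were seen as the only promoter of the mitotic list with both, had an E2F match at bases 120 to 127 and CHR matches at 180 to 185 and 236 to 241. The E2F letters stood in 10 of 19 licensing promoters (52.6%), 7 of 25 replisome promoters (28%) and 4 of 8 E2F and DP promoters (50%), against 1 of 34 mitotic promoters (2.94%) and 1 of 17 nucleotide supply promoters (5.88%). The CHR letters stood in 25 of 34 mitotic promoters (73.5%), against 5 of 19 licensing promoters (26.3%) and 3 of 8 E2F and DP promoters (37.5%). Over all 32851 windows the shares were 2.26% for E2F and 17.9% for CHR, and over the genes tested 4.21% and 14.5%. Among genes called higher in G1 they were 6.37% and 16.9%, and among those called lower 2.98% and 13.8%. Mcm3 had 202, 307 and 286 CPM in G1 and 36.6, 72.2 and 90.3 CPM in G0 (2.07 ± 0.15), Cdc6 changed by 2.13 ± 0.13 and Cdk1 by 1.21 ± 0.18. All 4 promoters shown hold a match. Mcm10 (2.3) and Birc5 (2.9), the largest changes of the licensing and mitotic lists, held neither motif in their windows. A match is a string of letters and not a measured site.

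Genes of differentiated neurons were lower in G1 in nearly every class tested. All 32 genes of the neuronal cytoskeleton fell (median -2.21). Nefl, with 28.7, 40.7 and 32.4 CPM in G1 and 853, 902 and 899 CPM in G0, had tight groups on both sides (adjusted p = 1.56e-07), although 32.8% of its exon length lies under exons of the other strand. Prph, peripherin, a filament of sensory and autonomic neurons, had 0.56, 0.786 and 0.712 CPM in G1 and 33.2, 41.6 and 27 CPM in G0 (-5.61 ± 0.22). The summed list stood at 8120, 7040 and 5740 CPM in G1 and 28700, 24500 and 25400 CPM in G0. Unsorted cells of the same preparations held 5030 to 6240 CPM of it on plain totals, near the G1 gate and far under the G0 gate. These neuronal levels move with the cell cycle lists, and their part in those results was not tested.

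Excitable properties followed the cytoskeleton. Of 34 voltage-gated channel genes 28 fell and none rose (median -1.48). Scn9a, a member of that list, had 3.54, 1.07 and 1.92 CPM in G1 and 58.5, 68.7 and 51.8 CPM in G0. Of 31 genes of synaptic vesicles and release 29 fell and none rose, among them Rab3c, a vesicle GTPase (-3.23 ± 0.15). Of 18 genes of transmitter synthesis and transport 16 fell and none rose (median -2.36). Slc17a6, the vesicular glutamate transporter of spinal neurons, had 10.1, 4.55 and 3.85 CPM in G1 and 151, 99.5 and 79.3 CPM in G0 (-4.23 ± 0.15). Slc6a5, the glycine transporter (-3.98 ± 0.21), and Chat, which makes acetylcholine (-3.84 ± 0.27), fell as well. Slc17a6, Slc6a5 and Chat, known from glutamatergic, glycinergic and cholinergic neurons, thus each had the higher level in G0. In that list 2 members did not pass.

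Of 43 axon guidance and adhesion genes 27 fell (62.8%) and 7 rose (16.3%), against 18.7% and 17.4% of all genes tested. Robo3, the receptor of commissural axons (ENSMUSG00000032128.15, GRCm38 chromosome 9 from 37415669 to 37433246, minus strand), had 103, 32.6 and 30.7 CPM in G1 and 1404, 780 and 510 CPM in G0 (-4.13 ± 0.17), with both gates highest in WT1. The adhesion molecules L1cam (-3.72 ± 0.16) and Chl1 (-3.19 ± 0.30, adjusted p = 0.0995 without WT2) fell too. The 3 that rose most were Sema3a (1.49 ± 0.11), a repellent secreted around axon tracts, the ephrin Efnb1 (1.12 ± 0.13) and the Eph receptor Epha4 (0.91 ± 0.12). The ligands Ntn1 (0.23 ± 0.17) and Efnb2 (0.14 ± 0.10) did not pass, although Ntn1 did without WT3 (0.50, adjusted p = 0.00163).

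Among 40 neuronal transcription factors 31 fell and 1 rose. Pou4f2 was nearly absent from G1, with 0.259, 0.0281 and 0.0356 CPM, against 10.9, 6.53 and 7.07 CPM in G0. Myt1l (-3.34 ± 0.20) fell, and the factor that rose was Neurod4 (0.92 ± 0.20), which acts in precursors at the last divisions. Neurod4 was no longer called without WT2 (0.68, adjusted p = 0.087). Ebf2 (-0.04 ± 0.15) and Nhlh1 (-0.38 ± 0.19), both early in differentiation, did not pass and overlapped between the gates. Without WT1, Nhlh1 changed by -0.66 (adjusted p = 0.00479). Of 18 neuronal RNA-binding proteins 15 fell, led by the splicing factor Rbfox1 (-3.71 ± 0.16). Ptbp1, which holds back neuronal exons in other cells, was the 1 that rose.

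Precursor genes stood on the other side. Of 21 neural progenitor genes 17 rose and 2 fell (median 1.28), and the median was 1.5 in WT1, 1.51 in WT2 and 0.71 in WT3. Hes5, a Notch target that keeps progenitors undifferentiated, had 29.9, 29.5 and 9.83 CPM in G1 and 2.83, 2.91 and 0.962 CPM in G0 (3.37 ± 0.19), lowest in WT3 in both gates, and 31.8% of its exon length lies under exons of the other strand. Notch3 (1.88 ± 0.19), a receptor, and Lfng (1.74 ± 0.20), which glycosylates Notch, rose. Of the Notch list 14 of 22 members rose, and Jag2, a ligand, was the 1 that fell (-1.20 ± 0.11). Lhx2 (-1.04 ± 0.13) and Nkx6-1 (-0.64 ± 0.13), which neurons also use, were the progenitor genes that fell. Vim (0.27 ± 0.15) and Msi1 (0.16 ± 0.10) did not pass, but Vim did without WT3 (0.53, adjusted p = 0.0018).

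In several gene families related members differed in their change between the gates, and the pairs described here were picked after their values were seen. In the BAF chromatin remodeller, neurons replace subunits ACTL6A, PHF10 and SS18 by ACTL6B, DPF1 or DPF3 and SS18L1. Actl6b (ENSMUSG00000029712.14, GRCm38 chromosome 5 from 137553517 to 137569582, plus strand) had 2.29, 0.87 and 0.855 CPM in G1 and 29.6, 18.1 and 12.1 CPM in G0 (-3.95 ± 0.23), while Actl6a had 88.3, 109 and 85.8 CPM in G1 and 64.7, 70.1 and 67.6 CPM in G0 (0.48 ± 0.11). In both gates Actl6a had more CPM than Actl6b. Dpf3 (-1.94 ± 0.19), Dpf1 (-1.46 ± 0.18) and Ss18l1 (-1.19 ± 0.12) fell, and Ss18 (0.51 ± 0.11) and Phf10 (0.38 ± 0.11) rose by less. Among the other members of that list, the PRC2 genes Eed (0.50) and Suz12 (0.35) rose, Jarid2 (-0.44) and Smarcc2 (-0.49) fell, and Ezh2 (0.31 ± 0.12), Ezh1, Smarca2, Smarca4, Smarcc1, Bcl7a and Dpf2 did not pass. Several of these calls changed when 1 preparation was left out. Without WT1 the adjusted p was 0.166 for Phf10, 0.233 for Suz12 and 0.0799 for Jarid2, without WT3 0.0702 for Suz12, and without WT2 0.0887 for Eed, 0.0163 for Ezh2 and 0.0344 for Smarcc1.

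Related glycolysis genes differed in the same way. Of 22 genes 12 rose (7 without the preparation block) and 3 fell, and those that fell, Hk1, Eno2 and Pfkp, are the forms known from brain. Hk2, the hexokinase of growing cells, had 82.7, 113 and 127 CPM in G1 and 26.9, 44 and 61.7 CPM in G0 (1.34 ± 0.13), and Hk1 had 43, 52.1 and 51.7 CPM in G1 and 90.4, 100 and 95.8 CPM in G0 (-0.97 ± 0.11). Eno1 rose by 1.08 ± 0.12 and the neuronal enolase Eno2 fell (-1.58 ± 0.20). Pfkl, the liver form of phosphofructokinase, changed by 0.83 ± 0.12 and the platelet form Pfkp fell (-2.48 ± 0.20). The lactate carrier Slc16a1 rose by 1.27 ± 0.18. The translation factor Eef1a2, which replaces Eef1a1 in mature neurons and muscle, had 0.474, 0.309 and 0.427 CPM in G1 and 10.5, 5.67 and 3.08 CPM in G0 (-3.86 ± 0.37), while Eef1a1 overlapped (0.34 ± 0.16, adjusted p = 0.136, and 0.59 with an adjusted p of 0.00428 without WT3). Ptbp1 had 185, 226 and 217 CPM in G1 and 79.3, 76 and 97.4 CPM in G0 (1.31 ± 0.11), whereas Ptbp2 was level at 482, 418 and 389 CPM in G1 and 503, 436 and 414 CPM in G0. Uhrf1, which leads DNMT1 to newly made DNA, rose by 1.94 ± 0.13, and its relative Uhrf2 did not pass (0.20 ± 0.10).

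**Figure D3:**
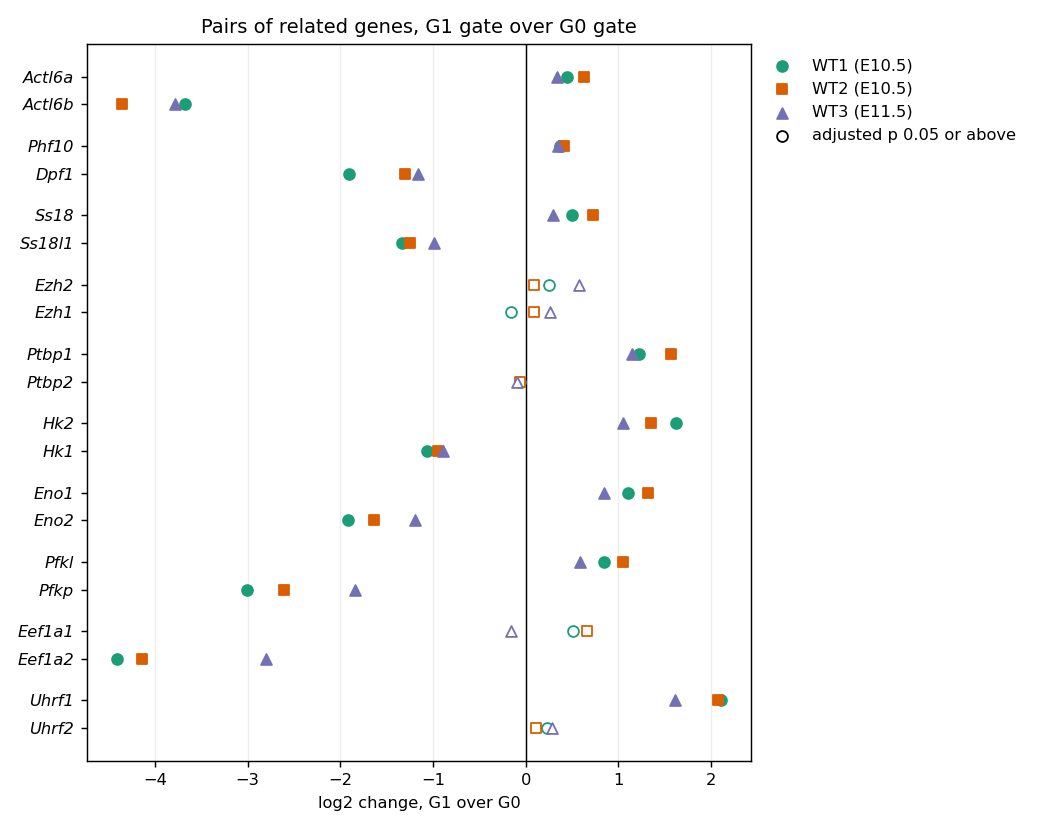
Log2 change of G1 over G0 in each preparation for 10 pairs of related genes, filled where the gene passed an adjusted p of 0.05. Actl6b, Eef1a2 and Pfkp lay at -1.84 or lower in each preparation while their partners lay near or above 0, and the Ezh2 and Ezh1 pair did not separate.

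Other growth and metabolic lists moved by smaller steps. Of 26 ribosome biogenesis genes 22 rose (median 0.64), with Dkc1, dyskerin, at 1.22 ± 0.11, and Rrn3, a factor of RNA polymerase I, fell (-0.58 ± 0.12). Of 82 cytosolic ribosomal protein genes 46 rose and none fell, but the median was 0.52 in WT1, 0.84 in WT2 and 0.19 in WT3, and without WT2 the count was 28. These genes have many processed copies that can match the same reads. Among 14 serine and one-carbon genes 8 rose and 2 fell. Phgdh, the first enzyme of serine synthesis, had 63.3, 76.1 and 54.4 CPM in G1 and 9.51, 15 and 22.7 CPM in G0 (2.11 ± 0.25). Cholesterol synthesis was the metabolic list lower in G1, with 9 of 20 genes falling and none rising (median -0.33). Hmgcs1, an early enzyme of the pathway, had 204, 261 and 213 CPM in G1 and 429, 443 and 393 CPM in G0 (-0.90 ± 0.11). Of 82 nuclear genes of oxidative phosphorylation 5 rose and 1 fell, with a median of 0.07 in WT1, 0.53 in WT2 and -0.16 in WT3. Of 11 mitochondrially encoded genes 5 rose (median 0.52). The p53 target list had 5 of 20 higher and 4 lower, near the 17.4% and 18.7% of all genes, with Cdkn1a and Mdm2 (-0.13 ± 0.10) not passing.

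Most signalling lists were higher in G1. All 20 Wnt targets and regulators rose (median 1.34), the largest change being that of Wnt3a. This ligand of the dorsal midline and tail bud had 10.7, 6.9 and 9.51 CPM in G1 and 0.954, 0.81 and 2.02 CPM in G0 (2.90 ± 0.30), with no overlap. Axin2, a feedback target read in most Wnt-responding cells and picked after its value was seen, had 110, 99 and 115 CPM in G1 and 57.9, 55.1 and 62.3 CPM in G0 (0.88 ± 0.10). Of 13 Hedgehog genes 11 rose. Gli1, a direct target of the pathway, had 19.8, 21.6 and 17.6 CPM in G1 and 4.04, 4.15 and 3.99 CPM in G0 (2.27 ± 0.18), while the ligand Shh fell by 0.85 on the log2 scale (SE 0.19). The ligand and its target thus had opposite signs. Of 17 BMP and TGF-beta genes 12 rose, with Msx1 and Msx2, homeobox targets of BMP, at 1.86 ± 0.17 and 1.89 ± 0.23. Of 16 FGF and Ras feedback genes 12 rose, with the ligand Fgf8 at 2.40 ± 0.26, and the phosphatase gene Dusp4 fell (-1.09 ± 0.10). In the retinoic acid list 10 of 14 rose, among them the degrading enzymes Cyp26c1 (2.82 ± 0.24) and Cyp26a1 (2.16 ± 0.31) and the synthesizing enzyme Aldh1a1 (2.41 ± 0.27). Crabp1, a binding protein of hindbrain and commissural neurons and crest, fell, with 361, 365 and 334 CPM in G1 and 1053, 1260 and 1565 CPM in G0 (-1.85 ± 0.14). The IGF system was mixed, with 6 of 13 higher and 2 lower (median 0.61 in WT1, 0.14 in WT2 and 0.08 in WT3), and the ligand Igf1 changed by 2.27 ± 0.16.

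Imprinted genes did not share a direction. Of 21 tested 11 rose (52.4%) and 6 fell (28.6%), against 17.4% and 18.7% of all genes tested. Mest (1.75 ± 0.13), Igf2 (1.25 ± 0.18) and Zim1 (1.25 ± 0.12), led those that rose. Ndn, necdin, known from postmitotic neurons, had 81.5, 118 and 87.7 CPM in G1 and 287, 257 and 224 CPM in G0 (-1.43 ± 0.14). Snrpn (-1.13 ± 0.16) of the same cluster and the noncoding RNA Meg3 (-1.21 ± 0.20) fell as well. The genes of fetal timing were divided too. Hmga2 and Lin28a are both repressed by let-7 microRNAs, yet Lin28a had 33.6, 55.6 and 80.1 CPM in G1 and 170, 242 and 254 CPM in G0 (-2.04 ± 0.14), opposite to Hmga2. Lin28b fell (-0.52 ± 0.10), Hmga1 (1.44 ± 0.18), Igf2bp1 (0.69 ± 0.11) and Igf2bp2 (0.32 ± 0.10) rose, and Igf2bp3, Trim71, Arid3b and Dnmt3b did not pass. Without WT1 the calls of Lin28b (adjusted p = 0.066) and Igf2bp2 (0.205) were lost, as was that of Igf2bp2 without WT3 (0.0602) and that of Lin28b without the block (0.0584).

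Hox genes, which mark position along the body axis, changed by paralog group. Of 36 tested 10 rose (27.8%) and 15 fell (41.7%), against 17.4% and 18.7% of all genes tested. The groups were split at 9 and 10 after the values were seen: of 27 genes of groups 1 to 9, 15 fell and 1 (Hoxd9) rose, and all 9 tested genes of groups 10 to 13 rose. Medians were -0.53 for groups 1 to 9 and 1.56 for groups 10 to 13. Of 2 examples, picked after their values were seen, Hoxc8, of trunk level, had 14.1, 16.9 and 10.3 CPM in G1 and 33.2, 33.5 and 20.3 CPM in G0 (-1.07 ± 0.15). Hoxd12, of the distal limb and genital bud, had 1.38, 1.57 and 0.962 CPM in G1 and 0.294, 0.286 and 0.192 CPM in G0 (2.31 ± 0.41). The posterior genes were low in both gates, and the Hox counts depended on single preparations: without WT1 5 genes rose and 6 fell, without WT2 4 rose (Hoxd9, at 0.86, was no longer called, adjusted p = 0.0626), and without the preparation block 5 rose and 5 fell.

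**Figure D4:**
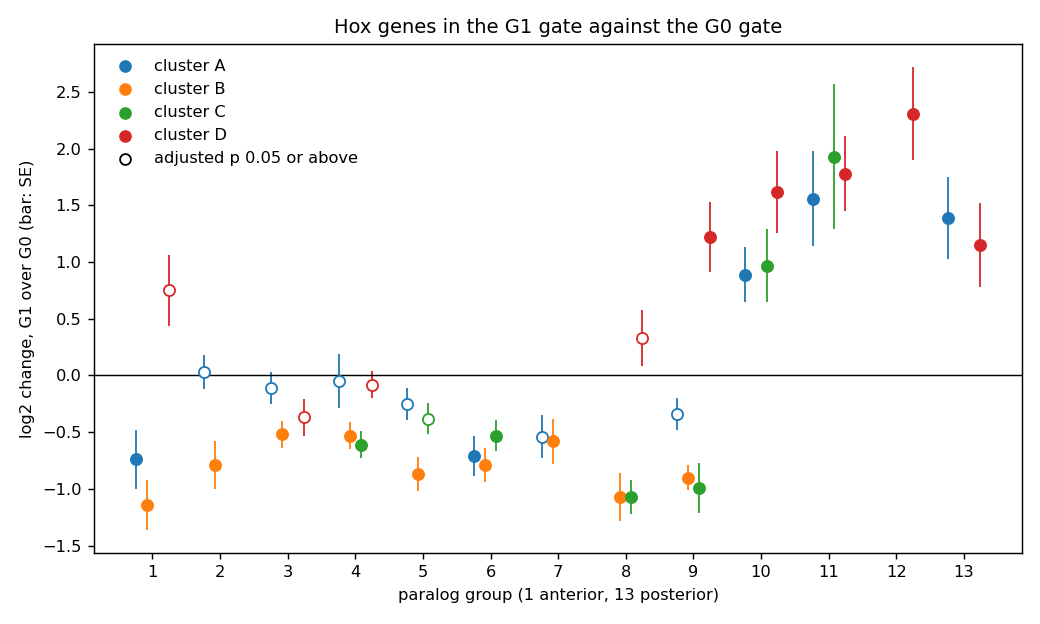
Log2 change of G1 over G0 with its SE for 36 Hox genes by paralog group and cluster, open where the adjusted p was 0.05 or above. Genes called in groups 1 to 8 lay below 0, and all genes of groups 10 to 13 lay above 0.

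Several lists of other cell types were mostly higher in 1 gate, and others were not. Neither direction prevailed in the hepatocyte list (2 of 10 higher and 1 lower), gut and lung endoderm (2 of 10 higher and 2 lower) and germ cells (1 of 5 higher and 1 lower). Over all genes tested 17.4% were higher and 18.7% lower. Of 28 genes of limb and body wall mesenchyme 25 rose and 2 fell (median 1.93). The summed list stood at 934, 1180 and 1100 CPM in G1 and 311, 381 and 443 CPM in G0. Pax1 (3.14 ± 0.31) and Alx1 (3.10 ± 0.27), factors of sclerotome and facial mesenchyme, were among the largest changes. Lmx1b (-0.79 ± 0.14) and Shox2 (-1.11 ± 0.18), which spinal and hindbrain neurons also express, were those that fell. Of 26 collagen and matrix genes 23 rose, with Col3a1, a fibrillar collagen, at 1105, 1938 and 1877 CPM in G1 and 284, 746 and 658 CPM in G0 (1.61 ± 0.13). Of 18 epithelial genes 15 rose, with Krt14 of basal epithelium at 2.09 ± 0.30. Without the preparation block the epithelial count was 9.

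In the muscle and ganglion lists more genes were lower in G1 than higher. Of 19 cardiomyocyte genes 13 fell, most of them encoding sarcomere proteins. The 3 that rose were the transcription factors Tbx5 (1.69 ± 0.33), Hand1 (1.52 ± 0.24) and Gata4 (0.88 ± 0.20, adjusted p = 0.0586 without WT1). Myh6, the atrial myosin heavy chain, had 5.61, 15.7 and 25.9 CPM in G1 and 55.9, 181 and 136 CPM in G0 (-3.07 ± 0.20). Of 19 skeletal muscle genes 8 fell and none rose. Titin, Ttn, had 201, 294 and 370 CPM in G1 and 972, 2919 and 1735 CPM in G0 (-2.60 ± 0.20), and the regulator Myog did not pass (-0.29 ± 0.17). Of 19 genes of sensory and sympathetic ganglia 14 fell and 1 rose, with Th, the first enzyme of catecholamine synthesis, at -3.33 ± 0.16. Neural crest genes were mixed, 8 of 13 higher and 3 lower. Sox10 rose by 1.70 ± 0.22, whereas Ngfr, the low-affinity neurotrophin receptor of crest and young neurons, fell by 1.66 on the log2 scale (SE 0.10).

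Blood lineages did not move together. Of 19 macrophage genes 11 rose and 2 fell (median 1.45), with Mrc1, the mannose receptor, at 16.6, 16.7 and 25.2 CPM in G1 and 1.5, 2.29 and 3.7 CPM in G0 (3.02 ± 0.22). The summed list differed little, at 85.6 to 93.8 CPM in G1 and 67.9 to 89.5 CPM in G0, and F13a1 (-1.01 ± 0.20, adjusted p = 0.0501 without WT1) was among the members that fell. Of 10 megakaryocyte and platelet genes 7 fell and 1 rose (median -1.89). Ppbp, a platelet chemokine, had 0.733, 0.87 and 0.926 CPM in G1 and 3.3, 3.38 and 14.9 CPM in G0 (-2.76 ± 0.41). Of 20 erythroid genes 6 rose (30%, against 17.4% of all genes tested) and none fell, and 1 preparation stood apart. Hbb-y, the embryonic beta-like globin, had 1742, 237 and 417 CPM in the G1 libraries of WT1, WT2 and WT3, and 44.3, 81.8 and 133 CPM in G0 (2.68 ± 1.26, adjusted p = 0.252). Without WT1 it changed by 1.59, and without WT3 by 3.42. Both of these fits passed the threshold, but with 2 preparations a side their p-values do not measure the spread of the full fit. Hbb-y also passed without the preparation block (adjusted p = 0.0195), with DESeq2 (0.0273) and in a fit of all 15 libraries (0.00182). Unsorted cells of these preparations held 16400 to 32000 CPM of the erythroid list on plain totals, far above both gates. With that list left out before scaling, 3934 genes were higher in G1 and 4231 lower. Endothelial genes hardly separated the gates, with 2 of 18 lower, Robo4 (-1.41 ± 0.19) and Esam (-0.81 ± 0.16, adjusted p = 0.103 without the preparation block), and none higher. These 2 were 11.1% of the list, under the 18.7% of all genes tested that were lower.

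The same pair of gates was sorted at E13.5 in preparations 5 and 8, and the G1 to G0 difference was compared between E10.5 to E11.5 and E13.5 by the interaction in 1 fit of 10 libraries. Day and preparation series cannot be told apart here, and mitochondrially encoded genes took 0.372% to 0.563% of counts in the 6 earlier libraries and 1.663% to 2.467% in the 4 at E13.5. Of 24021 genes tested, 982 (4.09%) differed, 628 (2.61%) with the more positive change at E10.5 to E11.5 and 354 (1.47%) with the more negative one. These counts rested on few libraries: without preparation 8 they were 88 and 61, without preparation 5 they were 95 and 71, without WT1 318 and 264, and without WT3 1145 and 700. Of the 9 G1 cyclin and kinase genes none was among them, and of the 10 E2F and DP genes 1 was. Of the replisome list 10 of 30 were more positive at the earlier days (median 1.22 against 0.63 at E13.5), as were 7 of 24 licensing genes (1.27 against 0.71) and 6 of 40 mitotic genes (1.34 against 0.45).

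Lists of cell types differed too. Of 16 cartilage genes 9 were more negative at E10.5 to E11.5, with a median of 0.57 against 2.06 at E13.5. On levels scaled over the 10 libraries, Acan, aggrecan, had 1.19, 1.81 and 1.61 CPM in G1 and 2.22, 4.63 and 4.34 CPM in G0 of WT1, WT2 and WT3, but 401 and 330 CPM in G1 and 75.9 and 55.3 CPM in G0 of preparations 5 and 8 (difference -3.75 ± 0.20, adjusted p = 3.3e-06). Both its level and its direction differed between the earlier preparations and those at E13.5. More negative were also 9 of 19 cardiomyocyte genes (median -1.71 against 0.38) and 7 of 20 skeletal muscle genes (-0.93 against 0.71). More positive were 10 of 28 mesenchyme genes, with 1 more negative (1.94 against 1.09), and 9 of 39 Hox genes. Hoxb9 changed by -0.93, -0.72 and -1.04 in WT1, WT2 and WT3 and by -3.55 and -3.47 in preparations 5 and 8 (difference 2.61 ± 0.16). The neuronal cytoskeleton was low in G1 at all days (-2.20 against -2.47), although 4 of its 32 genes were more positive and 3 more negative at the earlier days.

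**Figure D5:**
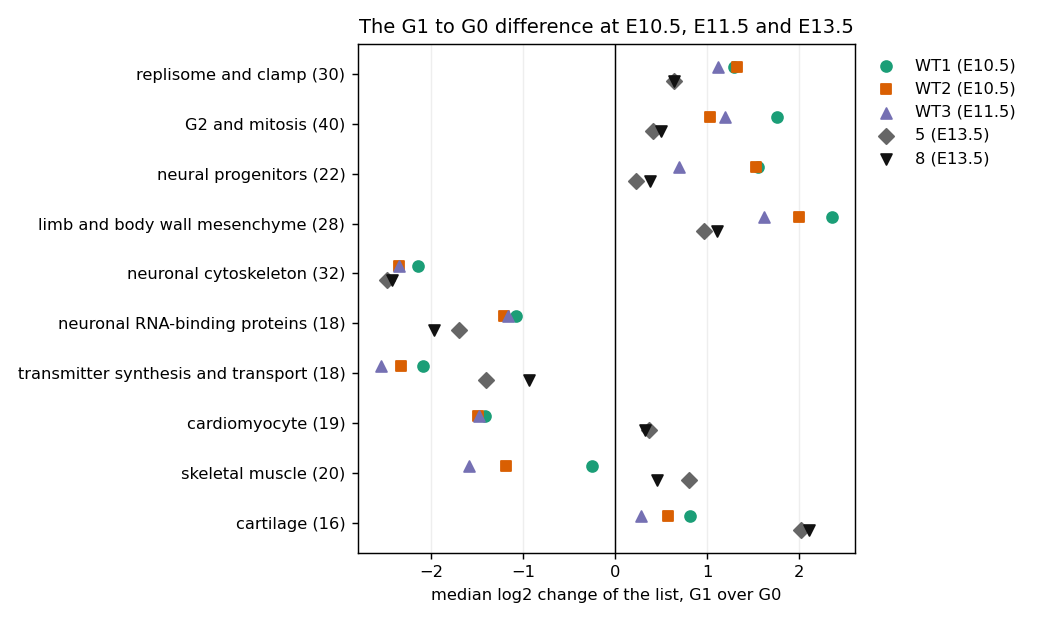
Median log2 change of G1 over G0 for 10 gene lists (genes tested in brackets) in preparations WT1, WT2 and WT3 (E10.5 and E11.5) and in 5 and 8 (E13.5). The cardiomyocyte list was at -1.71 over the earlier days and 0.38 at E13.5, the cartilage list at 0.57 and 2.06, and the neuronal cytoskeleton at -2.20 and -2.47.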

How the data were processed

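Embryos were minced, sorted by flow, and total RNA was depleted of ribosomal RNA and sequenced, per the labels' protocols. The deposited table holds raw read counts per gene and sequencing lane. STAR 2.5.3, HTSeq 0.8.0 and build mm10 are named, per the submitters' processing notes, while annotation and strand setting were not given in the sources used here. Lane counts of a library were summed (52550 genes). Genes passing filterByExpr (minimum count 10, minimum total 15) were fitted with edgeR 4.0.16 (R 4.3.3): TMM scaling, robust quasi-likelihood, gate plus preparation (from the title prefixes), 2 residual degrees of freedom, Benjamini-Hochberg threshold 0.05. CPM used TMM-adjusted totals. The difference between days was the gate by day interaction over 10 libraries. The fit was tested on simulated data. Symbols, coordinates and overlaps came from GENCODE on GRCm38, matched for 52403 IDs. Counting error alone does not cover the spread between preparations.

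Named genes were the 15 largest changes each way (mean log2 CPM of at least 3, the same direction in all 3 preparations), up to 3 called each way and 2 not called per list, every member of 7 short lists, and 6 each way for the days. Cdk1, Pfkl, Axin2, Hoxc8, Hoxd9, Hoxd12 and the gene pairs were picked after their values were seen. Members and lists were chosen with earlier results of these data known. Alternatives were no preparation block, other scalings (RLE, upper quartile), DESeq2 1.42.0, no filter, all 15 libraries, omission of 2 ribosomal RNA genes or of the erythroid list, a 2-fold minimum, and each preparation left out. A few genes that the rule picks are not reported here.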

Additional observations from a re-analysis of the deposited data

Results flagged for a closer look

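The G1 to G0 difference was not the same on all days. The interaction of gate and day passed an adjusted p of 0.05 (edgeR's quasi-likelihood test) for 982 genes, and the genes given here had the largest differences each way. Every value of a difference is the log2 change at E10.5 to E11.5 minus the log2 change at E13.5. Preparations, days and the share of mitochondrially encoded counts moved together, so that day and preparation series cannot be told apart.

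The 6 genes with the most positive differences included 2 Hox genes. Pax7, of the dorsal neural tube, had 29.6, 17.7 and 17.8 CPM in G1 and 3.65, 2.78 and 3.35 CPM in G0 of WT1, WT2 and WT3, and 18.1 and 15.4 CPM in G1 and 19.5 and 20.8 CPM in G0 of preparations 5 and 8 (difference 2.98). Barhl1, a homeobox gene of dorsal interneurons and cerebellar precursors, changed by 0.21 at the earlier days and -2.77 at E13.5 (difference 2.98). Glra1, a glycine receptor subunit, changed by 1.4 and -1.51 (difference 2.91), and Zic1, of dorsal neural tube and somites, by 1.09 and -1.57 (difference 2.66). For Glra1 and Zic1 the direction itself turned between the days. Hoxb8 changed by -1.07 and -3.74 (difference 2.68) and Hoxb9 by -0.90 and -3.51 (difference 2.61), so both were lower in G1 on all days and by more at E13.5.

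The 6 genes with the most negative differences included 3 of the cartilage list and 1 of the cardiomyocyte list. Cnmd, chondromodulin, had 2.92, 1.97 and 1.33 CPM in G1 and 36.8, 27.8 and 30.4 CPM in G0 of WT1, WT2 and WT3, and 74.3 and 70.7 CPM in G1 and 15.9 and 13.2 CPM in G0 of preparations 5 and 8 (difference -6.28). Acan (difference -3.75) and Col11a2, a cartilage collagen (-1.05 and 1.97, difference -3.02), turned direction likewise. Myh6 changed by -3.06 at the earlier days and 0.09 at E13.5 (difference -3.14), where its level was 2.11 and 4.26 CPM in G1 and 2.1 and 3.86 CPM in G0. Agtr2, an angiotensin receptor of fetal mesenchyme, changed by -3.88 and 0.40 (difference -4.28), and Pappa2, a protease that cuts IGF-binding proteins, by -3.31 and -0.33 (difference -2.98). For Myh6 the call was lost without the preparation block.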

How the results depend on the processing

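Over all genes, no call turned direction under any alternative tried. Without the replicate block 3060 genes were higher in G1 and 3582 lower. Preparation numbers came from the titles, and same-numbered libraries deviated together with r = 0.621 in WT1, 0.0528 in WT2 and 0.235 in WT3, over 16097 genes. With DESeq2 the counts were 3693 and 3766, and scalings gave 3794 to 3978 higher and 4160 to 4331 lower. Leaving out 1 preparation gave 2660 to 4632 higher and 3168 to 4607 lower. A minimum of 2-fold left 1715 higher and 2450 lower. Of 2408 values of named genes under alternatives, 2352 kept their direction and call, 38 lost the call and 18 gained one. Of 41 list counts of 8 or more genes, 14 of 451 values moved by over 1.5 times. Without the block the higher counts were 4 for antiproliferative genes, 9 for epithelium, 7 for glycolysis and 4 for immediate early genes, and Hox genes had 5 higher and 5 lower. With single preparations left out, the higher counts ranged from 4 to 8 for antiproliferative genes, 4 to 8 for Hox genes, 28 to 62 for cytosolic ribosomal proteins, 7 to 12 for translation factors and 3 to 14 for immediate early genes, and 6 to 14 Hox genes were lower. Counts of the difference between days were 223 more positive and 173 more negative without the block, 1151 and 666 without the filter, and 88 to 1145 and 61 to 700 with single preparations left out. The cause of these shifts was not tested. With 3 preparations a side, the fit had 2 residual degrees of freedom, and nothing was known of what made up a preparation.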

Other observations

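Genes of kidney and gonad precursors did not share a direction. Of 11 tested 6 rose (54.5%) and 4 fell (36.4%), against 17.4% and 18.7% of all genes tested. Pax8, a factor of the renal vesicle and of spinal interneurons, had 4.79, 2.81 and 3.45 CPM in the G1 libraries of WT1, WT2 and WT3, against 51.3, 29.7 and 19.8 CPM in G0 (-3.12 ± 0.22), and Pax2, which shares both sites, changed by -1.81 ± 0.19. Six2 (2.29 ± 0.23), a factor of nephron progenitors, Wt1 (2.14 ± 0.20) and Osr1 (2.59 ± 0.55), of intermediate mesoderm and its mesenchyme, rose. Of 20 antiproliferative genes 9 were higher (45%, and 4 genes without WT1). The 4 that were lower (20%) were near the 18.7% of all genes tested. Gadd45g, a stress-response gene that also marks committed neuronal precursors, had 190, 173 and 80.3 CPM in G1 and 47, 53.2 and 24.5 CPM in G0 (1.81 ± 0.11), lowest in WT3 in both gates. Gas1, a Hedgehog co-receptor first found in arrested fibroblasts, rose by 1.81 ± 0.16. Ndrg4, known from neurons and heart, fell, with 17.9, 14.9 and 13.8 CPM in G1 and 89.4, 74.4 and 63 CPM in G0 (-2.28 ± 0.12), and Ccng2, a cyclin of resting cells, fell by 0.69 on the log2 scale (SE 0.10).

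Of 9 genes of smooth muscle and pericytes 3 rose (33.3%) and 4 fell (44.4%), against 17.4% and 18.7% of all genes tested. Pdgfrb, the receptor of pericytes and mesenchyme, rose by 1.83 ± 0.13, and Acta2, smooth muscle actin, fell, with 13.3, 51.2 and 33.7 CPM in G1 and 33.6, 94.3 and 105 CPM in G0 (-1.28 ± 0.15). The Acta2 groups overlapped, yet each preparation had less in G1 than in its own G0 library. Without the preparation block the adjusted p of Acta2 was 0.0909. In the DNA methylation list 4 of 13 rose (30.8%) and 1 fell (7.69%). Dnmt1, the maintenance methylase, changed by 0.77 ± 0.10 and Dnmt3a, a de novo methylase, by 0.54 ± 0.10. Of the immediate early genes, which also answer tissue dissociation, 11 of 21 rose and 1 fell, but without WT1 3 rose and without the block 4. Socs3, a feedback inhibitor of cytokine signalling, rose by 1.27 ± 0.16 and Dusp1, a stress phosphatase, fell by 0.56 on the log2 scale (SE 0.13, adjusted p = 0.105 without WT1), while Ier2 (0.26 ± 0.13, adjusted p = 0.0477 without WT3) and Klf6 (0.17 ± 0.13) did not pass. The part of cell dissociation in these values was not tested.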
